A study of Mus musculus with 2 samples.

Results

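The 85 regions described here were the strong, isolated sites of NcoA3 in mouse embryonic stem cells at which the control library held few reads. They were chosen from the authors' list of 2017 peaks on the mm8 genome. Each had 30 or more ChIP tags in the authors' deposited table, fewer than 10 control reads with their 5′ end between its start and end, and no other peak summit within 10 kb. Chromosomes X and Y were left out, as was a long stretch of chromosome 8. Of the 2017 peaks, 341 had 30 or more tags, 321 of these lay outside the places left out, 226 of these were isolated, and 85 of these also had low control. The rule used the reads of both libraries, so a high ratio of ChIP to control at these sites is a description of the choice and no evidence of binding.

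The cells were of E14, an established line of mouse embryonic stem cells. They were kept on gelatin in medium that contained LIF, a cytokine under which such cells stay undifferentiated. ChIP-seq reads the DNA fragments that an antibody pulls down together with a chromatin protein. There was 1 library precipitated with an antibody against NcoA3 (11509916 reads) and 1 control from the same line (15125180 reads), which its title calls input and its antibody field IgG. No agent or genotype distinguished them. With 1 library each, no difference has a replicate check, every p-value compares these 2 libraries only, and intervals are 95% exact and cover counting error only.

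NcoA3 is a nuclear receptor coactivator. It does not bind DNA by itself, but is brought to enhancers and promoters by nuclear receptors and recruits enzymes that acetylate histones. In embryonic stem cells the series' title ties it to Esrrb, an orphan nuclear receptor of the network that maintains self-renewal. A bound site of such a factor is seen as plus-strand reads to the left of the site and minus-strand reads to its right, since sequencing starts at the ends of the precipitated fragments. Sequences, genes and annotated features at the sites were not analysed here, because no genome or annotation of mm8 was used.

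The 85 sites together held 3284 ChIP reads and 574 control reads after each 5′ end was moved inward by 0.5 times the distance between strands. They covered 83930 bp and made up 0.0285% of the ChIP library. The pooled ratio, scaled by library size, was 7.52 (interval 6.88 to 8.23). Per site, ChIP reads ran from 23 to 173 with a median of 36, and control reads from 2 to 10 with a median of 7. At 5 sites the control count reached 10 only because the ends had been moved. No site had a control count of 0, so each ratio has a finite interval. That no ChIP count fell among the control counts largely follows from the limits the rule set on both.

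All 85 sites were higher in the ChIP library by an exact two-sided binomial test with Benjamini-Hochberg adjustment over the 2017 peaks, against 95.4% of all peaks, and the largest adjusted p among the 85 was 0.00105. Scaled to the reads 5 to 50 kb from the summit, all 85 were again higher, against 75.1% of all peaks. The rule used this contrast, so nothing is read from either count. The ratio was 4 or more at 83 sites and 8 or more at 35, against 1172 and 391 of all 2017 peaks. The rule used this contrast here as well. The lowest ratio was 3.81 (interval 1.81 to 8.76), at 21086512 to 21087327 of chromosome 18, from 29 ChIP and 10 control reads. Ratios thus varied by several-fold among the sites, but the intervals were wide.

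**Figure D1:**
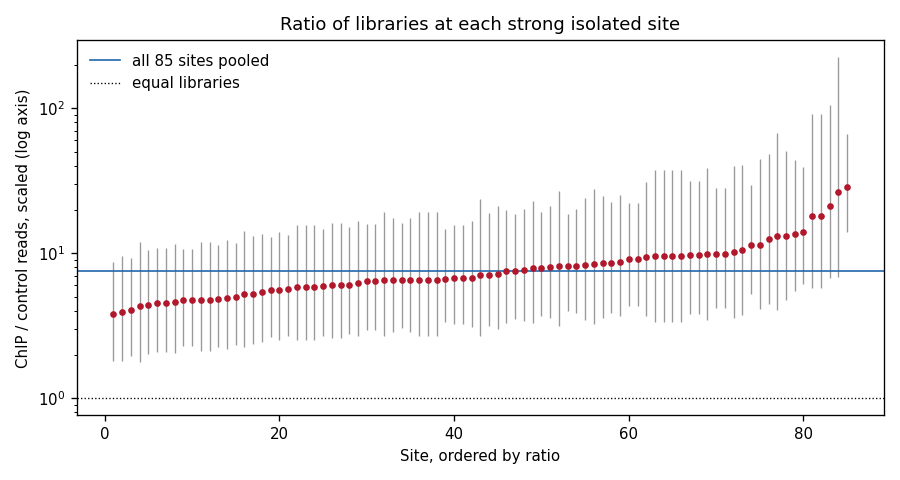
Ratio of ChIP to control reads, scaled by library size, at each of the 85 sites in order of ratio (log axis), with exact 95% counting intervals as bars. The blue line is the pooled ratio of 7.52, and 84 of the 85 intervals include it.

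One site stood apart from the rest. It spanned 59911210 to 59912719 of chromosome 14, had its summit at 59912176, and was the longest of the 85 at 1510 bp. It held 173 ChIP reads (15.04 RPM, reads per 1000000 reads) and 8 control reads (0.529 RPM), a ratio of 28.4 (interval 14.1 to 66.9). The next highest count at any of the other 84 sites was 64 ChIP reads. Its interval was the only one that lay above the pooled ratio, and no interval lay below it. In the authors' deposited table it had 209 tags, a score of 2817.35 and a fold over local background of 46.04. Its empirical false discovery rate there was 0%, against 100% at the other 84 sites. That rate was 100% at 2014 of all 2017 peaks, so it does not set the other 84 sites apart from the list. Without the strongest site the pooled ratio of the other 84 was 7.22 (interval 6.60 to 7.91).

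The sites that followed by the authors' score were much alike in size. The site at 107027603 to 107028717 of chromosome 7 had 64 ChIP reads beside 6 from the control, a ratio of 14.0 (interval 6.10 to 39.6). The site at 56062202 to 56063127 of chromosome 10 held 50 and 8 reads, a ratio of 8.21. The site at 28248398 to 28249514 of chromosome 19 held 56 and 9 reads, a ratio of 8.18. Chromosome 6 held a pair of the leading sites. That at 134770310 to 134771221 had 61 ChIP and 7 control reads and a ratio of 11.5 (interval 5.23 to 29.7), and that at 100343310 to 100344334 had 56 and 8 reads and a ratio of 9.20. These 5 intervals overlapped one another, so their order by ratio is uncertain.

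The site at 46494361 to 46495566 of chromosome 14 also had 56 ChIP and 8 control reads. The site at 84651571 to 84652490 of chromosome 16 had 51 and 10 reads, a ratio of 6.70. On chromosome 11, the site at 12366876 to 12367872 had 52 and 5 reads (ratio 13.7), while that at 62031071 to 62031753 had 37 and 5 reads (ratio 9.72) within only 683 bp. The site at 25064299 to 25065413 of chromosome 5 had 48 ChIP reads but 3 control reads, and its ratio of 21.0 had an interval of 6.78 to 106. The site at 44819158 to 44820241 of chromosome 8 had 46 and 8 reads, a ratio of 7.56. High ratios among these sites thus went with very small control counts. The highest ratio after the first, 26.3 at 49405789 to 49406773 of chromosome 9, came from 40 ChIP reads against 2 control reads and had an interval of 6.81 to 224.

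Values on either side of each limit were close. At the limit of tags, 11 of the 85 sites had exactly 30, and 10 peaks that met the other conditions had 29. The site at 22420809 to 22421635 of chromosome 1 was just inside, where the ChIP library had 30 reads and the control 4. On the same chromosome the peak at 4962175 to 4962945 was just outside, with 25 ChIP reads and 1 control read. At the limit of control reads, 16 sites had 9 and 8 further peaks had 10. The strongest of those 8, at 122305873 to 122308436 of chromosome 6, had 132 ChIP reads and a ratio of 17.3. For isolation, the nearest other summit inside the limit was 11494 bp away, at the site 20263079 to 20263764 of chromosome 14, and the farthest outside it was 8628 bp away. Being within 10 kb of another summit kept out 21 peaks that met the other conditions.

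The split of reads by strand was not used by the rule. Over the 85 sites, 1535 ChIP reads were on the plus strand and 1749 on the minus strand, so 46.7% were plus. More reads were on the minus strand at 50 sites and on the plus strand at 33, with 2 sites equal. The strongest site alone held 52 plus and 121 minus reads. Over all 2017 peaks 49.9% of reads were plus, with more minus reads at 946 peaks and more plus reads at 947. At the 141 strong isolated peaks with 10 or more control reads 51.7% were plus, and the counts were 57 and 80. These differences between groups of peaks were not tested. By an exact two-sided binomial test against equal strands, adjusted over the 2017 peaks, 4 of the 85 sites (4.71%) were unequal, against 1.74% of all peaks. At an unadjusted p under 0.05 there were 18 (21.2%), against 12.5% of all peaks. Most peaks of the list hold fewer reads, which leaves the test less able to call them. Among peaks with 31 to 41 ChIP reads, an unadjusted p under 0.05 was met by 9 of 47 sites and by 11 of 55 strong isolated peaks with 10 or more control reads. At a like number of reads the shares were thus close, and their difference was not tested.

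All 4 unequal sites had more minus-strand reads. The strongest site, on chromosome 14, had 52 plus and 121 minus reads (adjusted p = 0.000109, exact binomial test). The site at 30264395 to 30265335 of chromosome 18 had 5 plus and 29 minus reads (adjusted p = 0.00778, exact binomial test), the lowest plus share of the 85 at 14.7%. The site at 56062202 of chromosome 10 had 12 and 38 reads (adjusted p = 0.0280, exact binomial test), and that at 25064299 of chromosome 5 had 12 and 36 (adjusted p = 0.0445, exact binomial test). The highest plus share, from 27 plus and 9 minus reads at 72743941 to 72744835 of chromosome 5, did not pass (adjusted p = 0.112, exact binomial test). Whether the reads of one strand were harder to place at these sites was not tested.

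**Figure D2:**
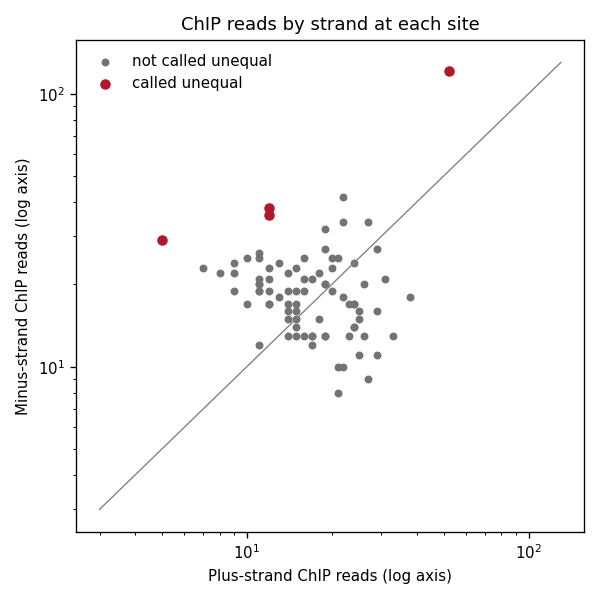
Plus-strand against minus-strand ChIP reads at each of the 85 sites (both axes log), with the line of equal counts. The 4 sites called unequal (red) all lie on the minus side, and the point at the upper right is the site on chromosome 14 with 52 and 121 reads.

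Aligned on their summits, the sites had plus-strand ChIP reads mostly to the left and minus-strand reads mostly to the right. In the 200 bp to the left of the summit there were 354 and 438 plus-strand ChIP reads per 100 bp, against 142 and 147 minus-strand reads. To the right the order was reversed, with 501 and 414 minus-strand reads against 146 and 130 plus-strand reads. The caller had placed the summits on ChIP reads moved by 100 bp each way, so part of this pattern follows from how summits were set. Within 100 bp of the summit the ChIP reads were 12.6 times as dense as at 1500 to 2000 bp, and 68.3% of those within 1000 bp lay within 300 bp. Control reads at the same places were 0.779 times as dense in the centre as outside, from 131 reads within 100 bp. The control had no rise under the ChIP summit, but a low control count was a condition of the rule. At the 141 strong isolated peaks with 10 or more control reads, chosen for the opposite, the same control ratio was 2.72, while the ChIP ratio was 12.3.

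**Figure D3:**
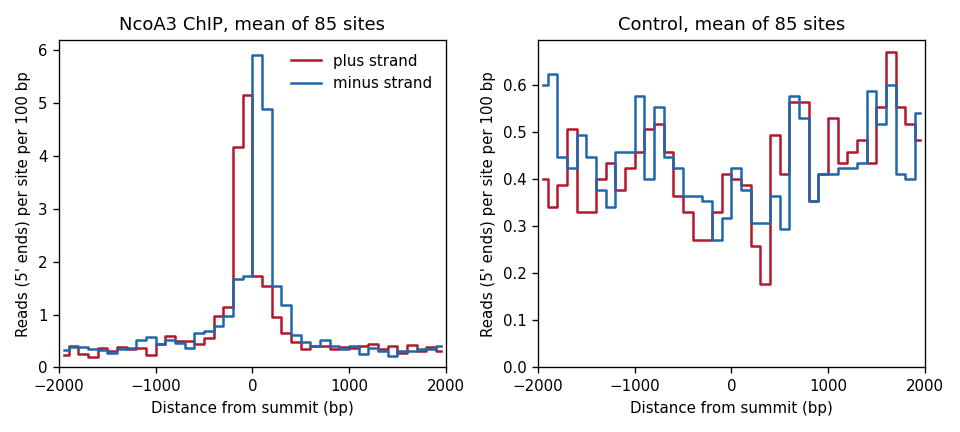
Mean 5′ ends per site in bins of 100 bp around the summit for the NcoA3 ChIP library (left) and the control (right), by strand, over the 85 sites. The vertical scales differ; plus-strand ChIP reads gather left of the summit and minus-strand reads right of it, while the control has no rise there.

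The distance between strands was also taken at each site, as the mean position of minus-strand reads less that of plus-strand reads within 500 bp of the summit. Its median was 85.8 bp. The distance used to move ChIP reads was a different measure, taken from pairs of plus-strand and minus-strand reads over the autosomes. Those pairs had a maximum at 97 bp and another of nearly the same height at 32 bp. Relative to pairs much farther apart, the heights were 1.18 and 1.17. The median of 85.8 bp is therefore not set against the 97 bp. The distance at a site was above 0 at 74 of the 85 sites (87.1%), against 79.0% of the 1995 peaks of the list at which it could be taken. The median standard error per site was 66.4 bp, so single values are poorly fixed. The distance was more than 2 standard errors above 0 at 29 sites (34.1%), against 25.1% of all peaks, and more than 2 below 0 at 0 sites, against 1% of all peaks. Over all peaks the median standard error was larger, at 94.0 bp, since most hold fewer reads. Among peaks with 31 to 41 ChIP reads, 13 of 47 sites were more than 2 standard errors above 0, against 38 of all 148 such peaks, which include the sites. The largest was 283 ± 66.4 bp (SE) at 21086512 to 21087327 of chromosome 18. The lowest was -115 ± 135 bp (SE) at 13661916 to 13663348 of chromosome 16, which is within its error of 0.

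The width of the signal was near that of the list as a whole. With each ChIP read extended to 200 bp, the width at mid-height had a median of 271 bp and ran from 201 to 515 bp, where the extension itself sets the least width near 200 bp. Over all peaks the median was 258 bp. The height was the maximum within 300 bp of the summit, around which the width was taken. It had a median of 19 reads and ran from 10, at 109169531 to 109170830 of chromosome 13, to 71 at the strongest site. The widest was the site at 65744865 to 65745887 of chromosome 3, with 36 ChIP reads. At like numbers of ChIP reads (31 to 41), the median width was 267 bp at the sites, 301 bp at strong isolated peaks with more control reads, 287 bp at strong peaks with another summit within 10 kb and 275 bp over all peaks. These differences were not tested.

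The strongest site had an uneven pattern. Its plus-strand reads rose to 17 per 100 bp just left of the summit and fell to 3 at 100 to 200 bp to the right. Its minus-strand reads had a pair of maxima, of 26 reads at 100 to 200 bp to the left and 27 reads at 100 to 200 bp to the right, with 16 and 18 reads between. Its width at mid-height was 432 bp and its distance between strands 47.5 ± 29.4 bp (SE). The authors' table gives it 36 more tags than the reads counted here, the largest such gap of the 85, against a median of 2. Their caller kept up to 2 tags per position, while the deposited reads hold each position and strand once. Whether this accounts for the gap at this site was not tested.

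**Figure D4:**
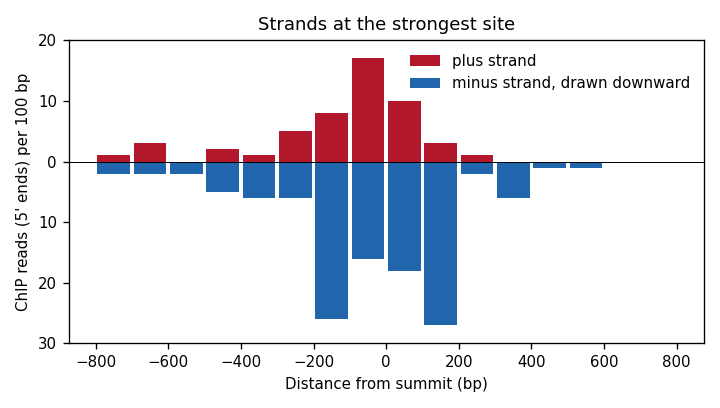
ChIP 5′ ends per 100 bp at the strongest site, with plus-strand reads upward and minus-strand reads downward, against distance from its summit. Minus-strand reads have maxima of 26 and 27 on either side of the summit, and plus-strand reads have 1 maximum of 17.

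Reads around the sites, outside all peaks, were not counted by the rule. From 1 to 10 kb from the summit, control reads had a median density of 8.72 per kb, from 3.67 to 20.9. The median over 10 kb bins of the autosomes with 10 or more control reads was 5.50 per kb. The surroundings were above that median at 74 of the 85 sites (87.1%), against 67.8% of all peaks. They were above the bins' upper quartile of 7.80 per kb at 52 (61.2%), against 38.6%. At the 141 strong isolated peaks with more control reads these shares were higher, at 92.9% and 80.1%. They were 97.9% and 84.2% at strong peaks with another summit within 10 kb, and 56.8% and 26.6% at the weaker isolated peaks with low control. The differences were not tested. ChIP reads in the surroundings had a median of 5.78 per kb, against 4.80 per kb over the bins. The median was also 5.78 per kb over all peaks, and 5.94 per kb at the 141 strong isolated peaks with more control reads. ChIP density was above the bins' median at 91.8% of the sites, 77.8% of all peaks and 87.2% of the 141. Most of the sites thus lay where both libraries had more reads than the median bin. For each library taken alone, the same held for most peaks of the list. Inside the peak bounds the median control density was 6.92 per kb, which was also above the bins' median of 5.50 per kb. It was below the density of the site's own surroundings at 62 of the 85 sites, against 913 of all 2017 peaks and 36 of the 141 strong isolated peaks with more control reads. The rule capped control reads inside the bounds, so this dip follows at least in part from the choice and nothing is read from it.

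The caller sets each peak against control reads within 10 kb, per the file headers. Whether this affected which peaks were listed was not tested. At 5 to 50 kb, which may partly overlap the caller's range, control density was also taken. Its median was 8.02 per kb at the sites and 5.87 per kb at the 1239 weaker isolated peaks with low control. It was 8.90 per kb at the 141 strong isolated peaks with more control reads. The share above the autosome median at this distance was 88.2% of the 85 sites, 54.6% of the weaker peaks and 88.7% of the 141. These differences between groups of peaks were not tested.

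**Figure D5:**
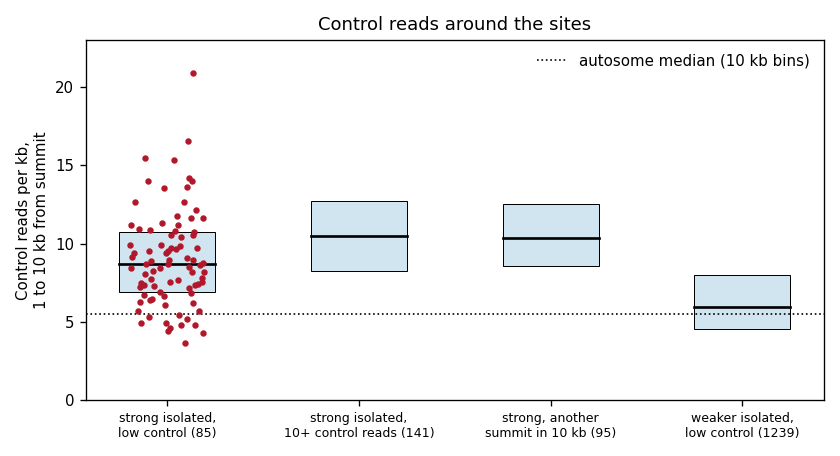
Control reads per kb at 1 to 10 kb from the summit, outside peaks, for 4 groups of peaks (boxes, quartiles; thick lines, medians; red points, the 85 sites). The dotted line is the autosome median of 5.50 per kb, and 74 of the 85 points lie above it.

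The ratio of ChIP to control reads in the surroundings, scaled by library size, varied by site. Its median was 0.936 at 1 to 10 kb, and it was below 1 at 52 of the 85 sites (61.2%), against 34.2% of all peaks and 68.1% of the 141 strong isolated peaks with more control reads. Pooled over the sites it was 0.863 (interval 0.840 to 0.886), from 9046 ChIP and 13776 control reads, against 0.806 (interval 0.791 to 0.822) around the 141 strong isolated peaks with more control reads. It was 1.03 around strong peaks with another summit within 10 kb and 1.13 (interval 1.12 to 1.14) around the weaker isolated peaks. At single sites it was lowest at 7328255 to 7329190 of chromosome 19, at 0.308, where control density was also the highest of the 85 and the authors' score the lowest at 59.58. It was highest at 38202914 to 38204067 of chromosome 17, at 2.27. Scaling to the reads 5 to 50 kb away accordingly lowered that site's ratio from 4.76 to 2.53 (adjusted p = 0.0280, exact binomial test). At 135418656 to 135419467 of chromosome 4 the same scaling raised it from 9.53 to 23.5. The order of sites by ratio therefore depends on the scaling. Each site was above the control under both, against 95.4% and 75.1% of all peaks. The rule used this contrast, so nothing is read from that.

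The 85 sites were spread over all 19 autosomes. Chromosome 1 held 11 of them, chromosome 6 held 8, and chromosomes 10 and 2 held 7 each, while chromosomes 12 and 13 held 1 each. On chromosome 19, 6 of 7 strong isolated peaks had low control, against 6 of 23 on chromosome 4 and 1 of 13 on chromosome 12. Over all 19 autosomes it was 85 of 226. These chromosomes were picked for their values, the counts are small, and the differences were not tested. The nearest other summit of any strength was a median of 362 kb away, and at most 3341 kb, at 180638042 to 180639027 of chromosome 2. No other peak lay within 100 kb at 68 sites (80%), or within 1 Mb at 24 (28.2%). Over all peaks, which include those not isolated, the shares were 64.1% and 17.65%. Neighbouring sites of the 85 were within 1 Mb of each other in 6 of 66 cases, the closest pair being 97429 bp apart on chromosome 9, at summits 49406435 and 49503864. The weaker isolated peaks with low control had a median of 386 kb to the nearest other summit and no other peak within 100 kb at 980 of 1239. At the 141 strong isolated peaks with more control reads the median was 219 kb, and 92 had no other peak within 100 kb. These differences were not tested.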

How the data were processed

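Aligned reads of 1 NcoA3 ChIP library and 1 control were deposited as positions, on the build mm8 according to the submitters' processing notes. Which aligner was used is not given in the sources used. Peak calling by the authors was with MACS 1.4.1 (per the file headers), at a p-value limit of 1e-05, with d of 200 bp and at most 2 tags per position. The deposited list gives tag counts, a score (10 times −log10 of the caller's p), a fold (ratio over local background) and a false discovery rate in percent, all the authors'. The deposited reads were 95.9% and 82.5% of the tags in the header.

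The second column of the read files was taken as the 5′ end on either strand. On the mitochondrial genome, minus-strand values reached 16298 and plus-strand values 16265. Of 2017 peaks, 1651 began 99 to 100 bp before the outermost ChIP read moved by 100 bp under this reading, against 3 with the next column taken for minus-strand reads.

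Ends were moved inward by 48 bp (ChIP) and 57 bp (control), and libraries scaled by reads on chromosomes 1 to 19, X and Y, which gives 0.761 ChIP reads per control read. Exact binomial tests ran over all 2017 peaks with a limit of 0.05, in scipy 1.17.1 (Python 3.11.15, with pandas 2.3.3 and numpy 2.4.6), and were tested on simulated data. Sites named were the 12 of highest score, up to 3 on either side of each limit, the extremes of each measure, and the sites called unequal by strand. The last of these, the closest pair, the site on chromosome 4 whose ratio rose with local scaling and the chromosomes named were added once their values had been seen. The sites, lists and tests were chosen with earlier results of these data known.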

Additional observations from a re-analysis of the deposited data

How the results depend on the processing

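The number of sites depended on the limits: 137 with tags of 25 or more, 34 with tags of 40 or more, 14 with fewer than 5 control reads and 147 with fewer than 15. It was 83 to 89 with other isolation distances or a score of 100 or more. With the third column as the minus-strand 5′ end, a setting chosen after seeing the data, it was 86, of which 84 were shared. The pooled ratio was 11.1 within 250 bp of the summit, and 7.22 to 7.82 under the other 5 settings. A pseudocount of 3 reads took the median fold from 6.21 to 5.37. The median width at mid-height was 181 bp with reads extended to 130 bp and 143 bp with smoothing alone, so it reflects the extension. The count of sites with unequal strands was 3 or 4, and the median distance between strands 80.6 to 109 bp. The alternatives on sequence motifs and gene starts were not run, since no mm8 genome was used. No paired analysis was possible because each group has 1 library. Depth limits single sites: with 23 to 64 ChIP reads at 84 of them, most ratios cannot be ranked.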
